A study of Homo sapiens with 8 samples.

Results

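Expression profiles of MIV-Luc-shIL13Rα2#2 cells treated with IL-13 were compared with those of mock-treated MIV-Luc-shSCR cells, so that the groups differed in both the hairpin and the cytokine. This combined comparison took 4 of the 8 arrays of the series, chosen by the construct and treatment in the column headings, with 2 arrays per group. The cells were MCF10CA1a, the metastatic end of the MCF10A progression model of human breast epithelium, and in all groups carried a luciferase gene (MIV-Luc) and a pLKO vector. The 4 groups of the series were shSCR cells (a scrambled hairpin) and shIL13Rα2 cells (hairpin #2 against the receptor), each either mock-treated or exposed for 16 h to IL-13 at 20 ng/ml. The question of the comparison was which transcripts differ once cells with the hairpin against the decoy receptor are also given its ligand. IL13RA2 mRNA itself did not differ detectably between the 2 groups compared (log2 0.11, adjusted p = 0.815 from limma), as described below. Each cell line was a pool of transduced cells made with 1 hairpin, so that the loss of IL13Rα2 and any other effect of that hairpin cannot be told apart. The values were measured in bulk, and fewer cells of a state and less RNA per cell cannot be told apart.

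IL-13 signals through a receptor of IL4Rα and IL13Rα1, whose JAK kinases phosphorylate STAT6, and phosphorylated STAT6 enters the nucleus and activates genes such as those of the squamous cell carcinoma antigens. IL13Rα2 binds the same ligand with high affinity, has a short cytoplasmic tail without a JAK docking site and is known as a decoy. p63, the product of TP63, is the master transcription factor of basal epithelial cells.

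Log2 expression values were available for 29141 gene-level features after 4156 control features were dropped. Array medians lay between 5.02 and 5.06, and the median SD between arrays of a group was 0.102, and precision is limited by how few arrays each group has. The arrays of a group are called A and B in the order of their columns. Of 12 basal mammary markers, 10 did not pass the test in the combined comparison, and their median level per array was 8.01 to 8.08 in mock-treated shSCR cells and 7.86 to 7.88 in IL-13-treated knockdown cells. The median of the negative-control features was higher on the arrays with both changes (4.28 and 4.38) than on those of mock-treated shSCR cells (4.12 and 4.15). The part of this difference in the changes of dim genes was not tested. The marker medians of endothelium (3.92 to 4.08) lay below the negative-control median, those of leukocytes (4.18 to 4.46) near it and those of fibroblasts (4.50 to 4.61) slightly above it. None of these 30 markers passed. The luminal markers had medians of 5.29 to 5.49.

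Limma, fitted to all 8 arrays, called 41 genes at a Benjamini-Hochberg adjusted p under 0.05 and a fold change above 2. Of these, 28 were upregulated and 13 downregulated. Over all features, 0.154% were called, 0.106% as higher and 0.048% as lower. All 41 genes had both arrays of one group above both of the other, which also held for 40.3% of features, and 9.56% of features had an unadjusted p under 0.05. The upregulated genes were led by 3 serpins, SERPINB4, SERPINB3 and SERPINB13, followed by TP63, the complement protease CFI, the sulfate transporter SLC26A2 and the cytosolic protein PALMD. The downregulated genes were led by ZNF487P, the mucosal chemokine CXCL17, and NT5E, the ectoenzyme CD73 that makes adenosine from AMP. Without the fold threshold, 0.285% of all features passed the adjusted p, 0.165% as higher and 0.12% as lower. A further 34 genes passed with a fold change of 2 or less, among them VIM (vimentin), CEACAM1 and TGFBR1 as lower and DST, HBEGF and TNFSF10 as higher. The genes nearest to the fold threshold were COL12A1 with a log2 fold change of 1.01 inside it and LIMCH1 with 0.98 outside it, and C9orf95 (-1.02, adjusted p = 0.0511) and LRRC31 (1.47, adjusted p = 0.0522) just missed the adjusted p.

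SERPINB3 and SERPINB4, the squamous cell carcinoma antigens, are neighbouring clade B serpins that inhibit proteases inside the cell and are known targets of IL-13 and STAT6. Their start regions are shown because the pair moved furthest. Probes may not tell close paralogs apart, so the values of the pair may be linked. That was not tested, and bases before the start do not show it. The 250 bases before each start (RefSeq, GRCh38.p14, minus strand, chr18:63661894-63662143 for SERPINB3 and chr18:63644257-63644506 for SERPINB4) were 98.8% identical, with the 3 bases that differ in capitals.
SERPINB3: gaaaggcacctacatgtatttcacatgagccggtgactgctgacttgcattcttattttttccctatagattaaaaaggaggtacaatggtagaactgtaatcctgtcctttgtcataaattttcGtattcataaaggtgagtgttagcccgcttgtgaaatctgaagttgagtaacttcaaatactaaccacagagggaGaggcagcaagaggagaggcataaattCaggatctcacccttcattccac
SERPINB4: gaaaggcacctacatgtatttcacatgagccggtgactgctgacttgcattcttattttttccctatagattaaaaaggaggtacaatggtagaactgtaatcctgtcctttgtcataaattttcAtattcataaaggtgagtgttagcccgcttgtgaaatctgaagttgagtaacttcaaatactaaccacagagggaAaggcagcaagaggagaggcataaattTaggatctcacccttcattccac

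SERPINB3 had log2 values of 6.94 and 6.84 in mock-treated shSCR cells and of 10.93 and 10.97 in IL-13-treated knockdown cells. The cells with only one of the changes showed which step carried this: 10.70 and 10.85 in shSCR cells with IL-13, and 7.56 and 7.78 in knockdown cells without it. The combined change was 16.7-fold (log2 4.06, SE 0.12, adjusted p = 2.5e-05 from limma). SERPINB4 went from 4.97 and 4.47 to 9.55 and 9.28, a 26-fold change (log2 4.70, SE 0.17, adjusted p = 7.1e-05 from limma), with 9.36 and 9.38 after IL-13 alone and 5.70 and 5.74 after the knockdown alone. With IL-13 present, the hairpins differed by 0.18 in SERPINB3 and 0.04 in SERPINB4 (adjusted p = 0.831 and 0.983 from limma). SERPINB13, an inhibitor of cathepsins that is the next protein-coding gene on chromosome 18, took an intermediate course. Its values were 3.45 and 3.37 in mock-treated shSCR cells, 4.92 and 4.48 with IL-13, 4.12 and 4.01 with the knockdown, and 5.85 and 5.31 with both (log2 2.17, SE 0.20, adjusted p = 0.00969 from limma). SERPINB13 started below the negative-control median, as did TMPRSS15 and VAV3 among the upregulated genes. At such low signals the fold of these 3 may be understated. It may also be overstated, since the negative-control median was higher with both changes (4.28 and 4.38 against 4.12 and 4.15). Neither was tested. Of the 13 measured clade B serpins, 3 rose, 1 fell, the elastase inhibitor SERPINB1 (log2 -0.86), and 9 did not pass (0.165% of all features passed as higher and 0.12% as lower), with a median of 0.03 beside 0.01 for all features. Only SERPINB3 and SERPINB4 among the 41 genes were called whichever of the 8 arrays was left out. The call of SERPINB13 was lost on leaving out A or B of the mock-treated shSCR arrays, or A of the arrays with both changes (adjusted p up to 0.0976 from limma), with log2 values of 1.89 to 2.44.

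Each combined change is the exact sum of an IL-13 part, the effect of IL-13 averaged over both constructs, and a knockdown part, the effect of the knockdown averaged over both treatments. In the same limma fit the IL-13 part of 22 of the 41 genes passed (adjusted p under 0.05, 0.233% of all features) and the knockdown part of 20 passed (0.446% of all features). Both parts passed in 3 genes, TP63, SLC26A2 and DKK1, and neither in CXCL1 and SPTBN5. With each array left out in turn, both parts of TP63 passed in 1 of the 8 fits (adjusted p up to 0.211 for IL-13 and 0.118 for the knockdown), and those of SLC26A2 (up to 0.0299 and 0.111) and DKK1 (up to 0.127 and 0.117, all from limma) in 0 of 8. Genes called for a large sum tend to have both parts in its direction, so these counts describe the 41 genes and support nothing. The difference of the parts equals the difference between IL-13-treated shSCR and mock-treated knockdown cells, whose 4 arrays do not enter the combined change. Its size is therefore not set by the choice of genes, but its p-values rest on the estimate of the spread that also entered that choice. By this test the IL-13 part was the larger in 12 genes and the knockdown part in 7, and 22 could not be distinguished (0.357% of all features passed).

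**Figure D1:**
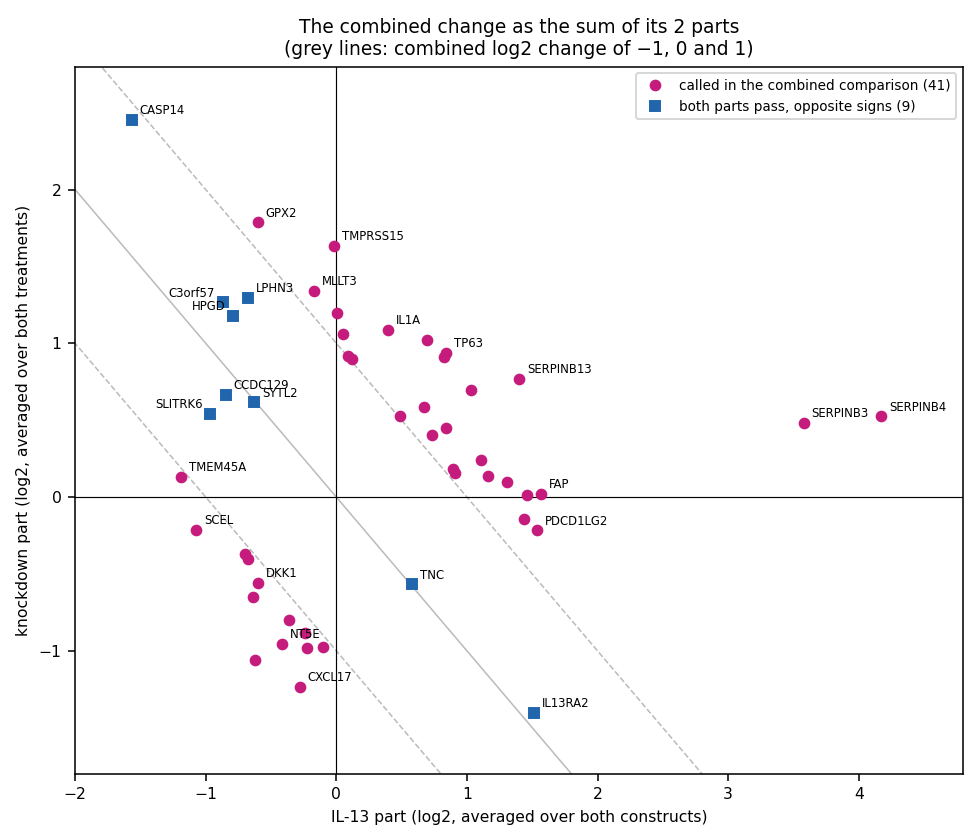
IL-13 part (horizontal axis, log2) against knockdown part (vertical axis, log2) of the 41 called genes (circles) and of 9 genes with opposing parts (squares), with grey lines where the sum is -1, 0 and 1. SERPINB3 and SERPINB4 lie far to the right, GPX2, TMPRSS15 and MLLT3 near the top, TP63 on neither axis, and IL13RA2, TNC and SYTL2 close to the line of no combined change.

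The 12 genes with the larger IL-13 part were SERPINB3, SERPINB4, FAP, CA2, LRAT, PDCD1LG2, SLIT2, ABCC2, PLXDC2, DPYD, SCEL and TMEM45A. FAP, a membrane-bound serine protease best known from activated fibroblasts, had values of 6.89 and 7.10 in mock-treated shSCR cells and 8.52 and 8.65 in IL-13-treated knockdown cells (log2 1.59, SE 0.12, adjusted p = 0.00437 from limma). With IL-13 alone it stood at 8.38 and 8.36, and with the knockdown alone at 6.77 and 6.87, so its IL-13 part was 1.57 and its knockdown part 0.02. The fibroblast marker list, which does not contain FAP, had no member that passed. CA2, the cytosolic carbonic anhydrase, was bright in all groups and moved from 10.32 and 10.43 to 11.86 and 11.84 (log2 1.48, SE 0.11, adjusted p = 0.00475 from limma). Its values after IL-13 alone, 11.80 and 11.88, and after the knockdown alone, 10.30 and 10.49, lay close to those of the groups with the same treatment. PDCD1LG2, which encodes the PD-1 ligand PD-L2, went from 5.62 and 5.67 to 7.09 and 6.84 (log2 1.32, SE 0.15, adjusted p = 0.0210 from limma). It was highest with IL-13 alone, at 7.39 and 7.26, and its parts had opposite signs (1.54 and -0.22). The efflux pump ABCC2 behaved likewise, with parts of 1.44 and -0.14 and a sum of 1.29.

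LRAT, which esterifies retinol for storage, rose by 1.41 (8.55 and 8.52 to 9.86 and 10.03, adjusted p = 0.00969 from limma), with parts of 1.31 and 0.10. LRAT and RBM46, an RNA-binding protein of the germline, are adjacent protein-coding genes on chromosome 4, and RBM46 rose by 1.14. SLIT2, the secreted ligand of ROBO receptors, rose by 1.30 (7.34 and 7.30 to 8.59 and 8.64, adjusted p = 0.0057 from limma), with parts of 1.16 and 0.14. DPYD, the initial enzyme of pyrimidine breakdown, rose by 1.07 and PLXDC2, a membrane protein, by 1.08. On the falling side, SCEL, the cornified-envelope precursor sciellin, went from 6.90 and 7.07 to 5.74 and 5.66 (log2 -1.28, SE 0.13, adjusted p = 0.0115 from limma). It stayed at 7.04 and 6.82 with the knockdown alone. TMEM45A, a membrane protein of keratinizing epithelium, fell by 1.06 on the log2 scale. Of the 10 genes of this group other than the serpins, FAP and CA2 lost the call on leaving out A of the mock-treated shSCR arrays or either array with both changes, and the other 8, as well as RBM46, on leaving out any of the 4 arrays compared. PDCD1LG2 was also lost without either array of shSCR cells with IL-13, and TMEM45A and RBM46 without either array of knockdown cells without it. Their adjusted p from limma then reached 0.0647 for FAP, 0.0651 for CA2, 0.0739 for SLIT2 and ABCC2, 0.105 for LRAT, 0.106 for PLXDC2, 0.118 for DPYD, 0.125 for SCEL, 0.181 for PDCD1LG2, 0.213 for RBM46 and 0.215 for TMEM45A.

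The 7 genes with the larger knockdown part were TMPRSS15, CDH19, GPX2, MLLT3, BICC1, COL12A1 and DHRS9. TMPRSS15, the enteropeptidase that activates trypsinogen, had values of 3.69 and 3.42 in mock-treated shSCR cells, 3.51 and 3.50 in shSCR cells with IL-13, 5.18 and 5.14 in knockdown cells, and 5.14 and 5.21 in knockdown cells with IL-13. Its combined change was 1.62 (SE 0.12, adjusted p = 0.00437 from limma), of which the knockdown part was 1.64 and the IL-13 part -0.02. For TMPRSS15, all 4 shSCR arrays, with and without IL-13, lay below the negative-control median. A fall or a small rise with IL-13 in these cells may therefore have been missed. CDH19, a type II cadherin, was measured above that level in all groups, with 6.92 and 6.98 in mock-treated shSCR cells and 8.11 and 8.20 in IL-13-treated knockdown cells (log2 1.20, SE 0.11, adjusted p = 0.00969 from limma) and parts of 0.01 and 1.20. In GPX2, the gastrointestinal glutathione peroxidase, the IL-13 part ran against the sum (-0.60, adjusted p = 0.139 from limma) and the knockdown part was 1.79. Its highest values, 7.22 and 7.53, were those of knockdown cells without IL-13, above 7.03 and 6.83 with both changes. MLLT3, the YEATS-domain protein AF9 of transcription elongation complexes, had parts of -0.17 and 1.34.

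BICC1, an RNA-binding protein, rose by 1.11 and COL12A1, a fibril-associated collagen, by 1.01, with knockdown parts of 1.06 and 0.92. DHRS9, a retinol and steroid dehydrogenase, fell from 7.18 and 7.05 to 6.079 and 5.995 (log2 -1.08, SE 0.11, adjusted p = 0.0152 from limma), and stood at 7.18 and 7.07 after IL-13 alone. The 2 retinoid enzymes among the called genes thus changed in opposite directions, LRAT with a larger IL-13 part and DHRS9 with a larger knockdown part. Without 1 array, the call of TMPRSS15 was lost on leaving out either array with both changes (adjusted p up to 0.0577 from limma), and those of CDH19, MLLT3, COL12A1 and DHRS9 for any of the 4 arrays compared (up to 0.105, 0.153, 0.147 and 0.153). BICC1 was lost without any of these or either array of shSCR cells with IL-13 (up to 0.170), and GPX2 without any of the 8 (up to 0.199).

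**Figure D2:**
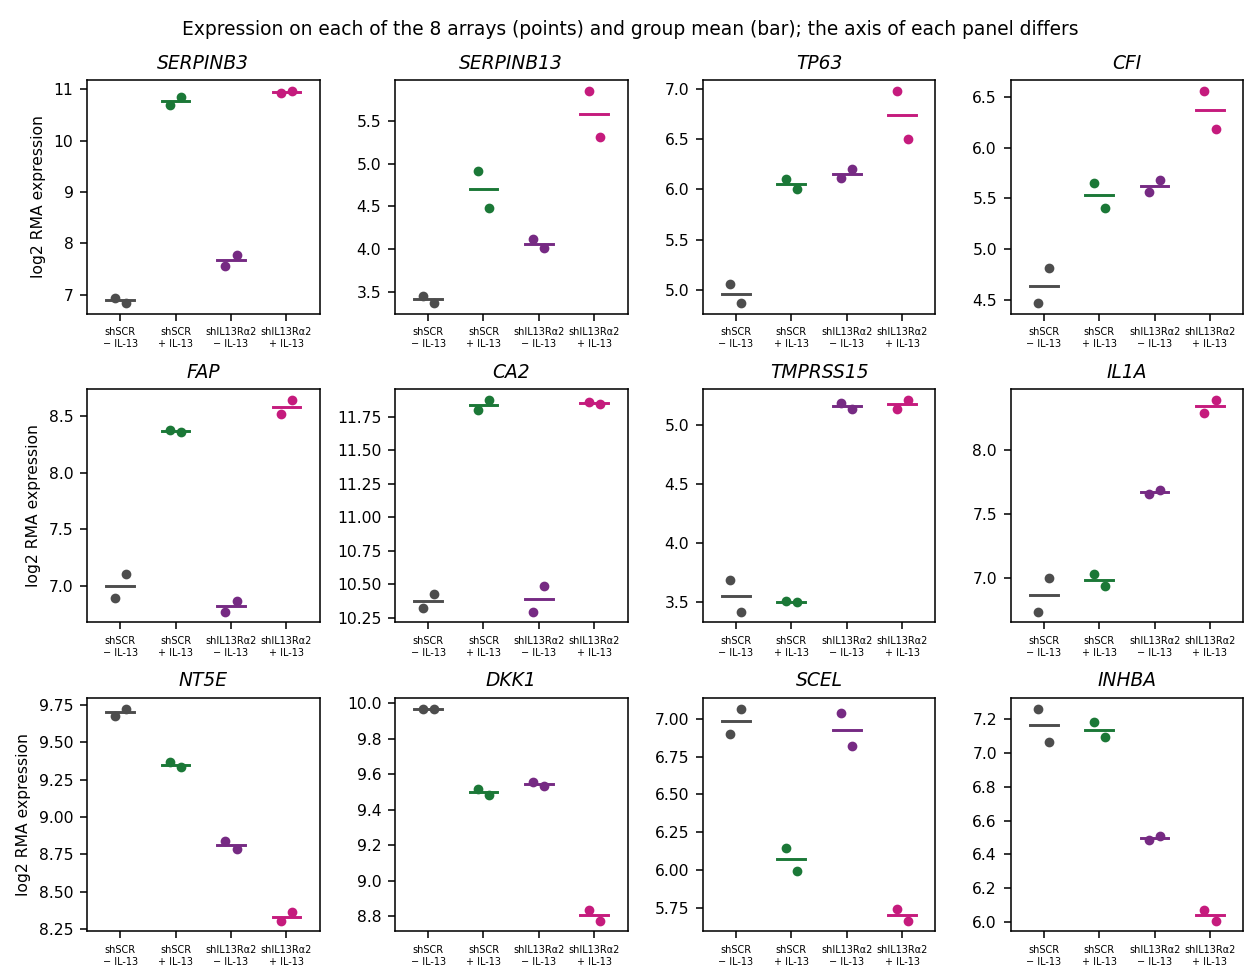
Log2 expression of 12 called genes on each of the 8 arrays (points) with group means (horizontal bars), in shSCR and shIL13Rα2 cells without (−) and with (+) IL-13. FAP and CA2 step up with IL-13 and TMPRSS15 with the knockdown, whereas TP63, CFI and DKK1 lie between the extremes after either change alone.

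For the remaining 22 genes the difference of the parts did not pass, which does not show that the parts were alike. TP63, measured by 1 feature for all its isoforms, had values of 5.06 and 4.87 in mock-treated shSCR cells, 6.107 and 5.999 with IL-13, 6.11 and 6.20 with the knockdown, and 6.98 and 6.50 with both. Either change alone gave an intermediate level, and arrays A and B with both changes lay further apart than in the other groups. The combined change was 3.43-fold (log2 1.78, 95% confidence interval 1.39 to 2.16, adjusted p = 0.00969 from limma), with an IL-13 part of 0.84 (adjusted p = 0.0463) and a knockdown part of 0.94 (adjusted p = 0.0225), which differed by -0.10. SLC26A2 showed the same course with less spread, from 5.53 and 5.66 to 7.33 and 7.31 (log2 1.73, SE 0.11, adjusted p = 0.00412 from limma), with 6.65 and 6.83 after IL-13 and 6.45 and 6.36 after the knockdown. DKK1, a secreted inhibitor of Wnt signalling, was the falling counterpart. Its values of 9.97 and 9.97 in mock-treated shSCR cells dropped to 9.52 and 9.49 with IL-13, 9.55 and 9.53 with the knockdown, and 8.84 and 8.78 with both (log2 -1.16, SE 0.10, adjusted p = 0.00685 from limma). Leaving out A or B of the mock-treated shSCR arrays, or A of the arrays with both changes, ended the call of TP63 (adjusted p up to 0.0947 from limma), leaving out A of either group that of SLC26A2 (up to 0.0647), and leaving out any of the 4 arrays compared that of DKK1 (up to 0.0952).

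CFI, the protease that cleaves the complement fragments C3b and C4b, went from 4.47 and 4.81 to 6.56 and 6.18 (log2 1.73, SE 0.17, adjusted p = 0.0123 from limma), with parts of 0.82 and 0.91. PALMD went from 5.67 and 5.58 to 7.56 and 7.14 (log2 1.72, SE 0.16, adjusted p = 0.00999 from limma), with parts of 0.70 and 1.02. IL1A, the alarmin interleukin-1α, rose from 6.731 and 6.999 to 8.29 and 8.40 (log2 1.48, SE 0.12, adjusted p = 0.0067 from limma). For IL1A the knockdown part passed (1.09) and the IL-13 part did not (0.39, adjusted p = 0.224). EGLN3, the oxygen-sensing prolyl hydroxylase PHD3, was uneven across the steps, with 5.67 and 5.86 in mock-treated shSCR cells, 6.08 and 6.22 with IL-13, 5.79 and 5.73 with the knockdown and 7.01 and 7.09 with both (log2 1.29, SE 0.12, adjusted p = 0.00969 from limma). The knockdown changed it by -0.01 without IL-13 and by 0.90 with IL-13, a difference of 0.91 that is described under the interaction. Also upregulated were the matricellular protein THBS1 by 1.26, SIDT1 by 1.35, the neutrophil chemokine CXCL1 by 1.02 and the guanine nucleotide exchange factor VAV3 by 1.02. SIDT1 lies 2 protein-coding genes from WDR52 (now CFAP44), which passed with a log2 change of 0.98. CFI, EGLN3 and THBS1 lost the call without any of the 4 arrays compared, PALMD without any of these but B with both changes, and IL1A without any but B of the mock-treated shSCR arrays (adjusted p up to 0.115, 0.105, 0.111, 0.0976 and 0.0915), and SIDT1, CXCL1 and VAV3 without any of the 8 arrays (up to 0.215, 0.220 and 0.244, all from limma).

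Among the falling genes whose parts did not differ past the threshold, NT5E went from 9.67 and 9.72 to 8.31 and 8.36 (log2 -1.37, SE 0.10, adjusted p = 0.00437 from limma). Its values after IL-13 were 9.37 and 9.34 and after the knockdown 8.84 and 8.79, and only the knockdown part passed (-0.95). INHBA, which encodes the activin A subunit, went from 7.26 and 7.07 to 6.07 and 6.01 (log2 -1.13, SE 0.11, adjusted p = 0.0120 from limma), with a knockdown part of -0.89 and an IL-13 part of -0.24. CXCL17 fell by 1.51 on the log2 scale (8.23 and 8.04 to 6.92 and 6.33), and the neighbouring gene CEACAM1, an adhesion molecule on chromosome 19, passed with -0.90. SERPINA1, the α1-antitrypsin of the secreted clade A, fell by 1.21, against the direction of the 3 clade B serpins above, and CTSL2, the lysosomal cysteine protease cathepsin V, fell by 1.16. SPARC, a matricellular protein, fell by 1.07, the hair keratin KRT81, which near-identical keratin genes can make hard to separate, by 1.08, the spectrin SPTBN5 by 1.29, and ZNF487P by 1.68. NT5E, INHBA, CTSL2 and ZNF487P lost the call without any of the 4 arrays compared (adjusted p up to 0.0647, 0.128, 0.125 and 0.113), KRT81 also on leaving out either array of knockdown cells without IL-13 (0.187), SERPINA1 on leaving out any array other than B of the mock-treated shSCR cells (0.215), and CXCL17, SPARC and SPTBN5 without any of the 8 arrays (0.202, 0.213 and 0.239, all from limma).

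The combined comparison can miss genes that the knockdown and IL-13 move in opposite directions. There were 9 genes for which both averaged effects passed with opposite signs (0.0309% of all features, against 0.0103% with the same sign), and none of the 9 passed in the combined comparison. IL13RA2, the target of the hairpin and itself raised by IL-13, was the clearest. It stood at 8.07 and 8.09 in mock-treated shSCR cells, 9.36 and 9.33 with IL-13, 6.52 and 6.34 with the knockdown and 8.23 and 8.15 with both. The IL-13 effect of 1.51 (adjusted p = 0.000471) and the knockdown effect of -1.40 (adjusted p = 0.00105) left a combined change of 0.11 (95% confidence interval -0.14 to 0.36, adjusted p = 0.815, all from limma), and the level of IL13RA2 mRNA in the IL-13-treated knockdown cells was thus not detectably different from that of the control cells. CASP14, the caspase of terminal keratinocyte differentiation, had the widest range, with 6.41 and 5.94 in mock-treated shSCR cells, 4.59 and 4.88 with IL-13, 8.67 and 8.84 with the knockdown and 7.17 and 6.96 with both. Its knockdown effect was 2.45 (adjusted p = 0.00105) and its IL-13 effect -1.56 (adjusted p = 0.00391), and the combined change of 0.89 did not pass (adjusted p = 0.152, all from limma).

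HPGD, which degrades prostaglandins, had an IL-13 effect of -0.79 and a knockdown effect of 1.18. The adhesion receptor LPHN3 (-0.67 and 1.29), C3orf57 (-0.87 and 1.27), CCDC129 (-0.85 and 0.67), the neuronal membrane protein SLITRK6 (-0.97 and 0.54) and SYTL2, a Rab27 effector (-0.63 and 0.62), shared this direction, lower with IL-13 and higher with the knockdown. TNC, the matrix protein tenascin-C, had that of IL13RA2 (0.58 and -0.57). Both effects held whichever array was left out for CASP14 and IL13RA2, and for none of the other 7 under any single omission (their adjusted p from limma reached 0.03895 to 0.207 for IL-13 and 0.0224 to 0.183 for the knockdown).

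**Figure D3:**
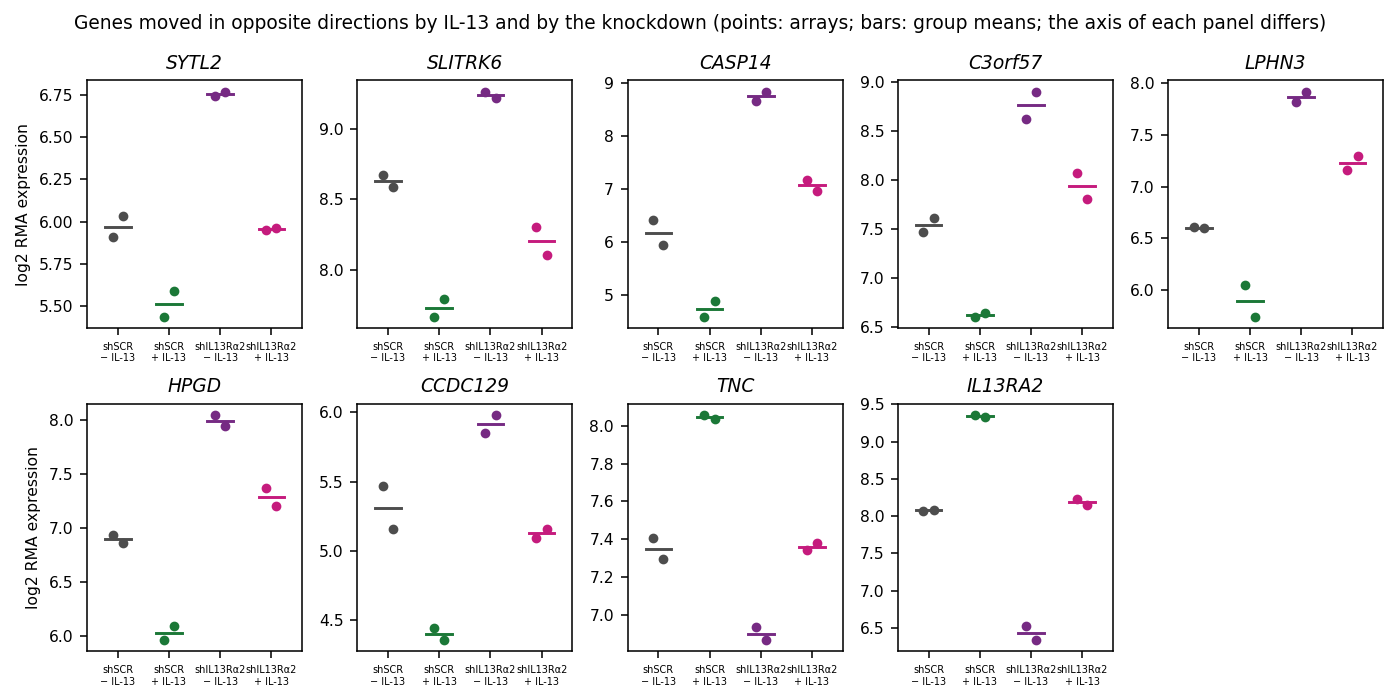
Log2 expression of the 9 genes with opposing averaged effects on each of the 8 arrays (points) with group means (horizontal bars). In each panel the cells with either change alone are the extremes, and the groups of the combined comparison, leftmost and rightmost, lie between them.

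The receptor chain list, which includes IL13RA2, gave no called change in the combined comparison. It held 22 genes for ligands, receptor chains, JAK kinases, STAT6, STAT3, inhibitors and other signalling members. None of the 22 passed, with log2 changes of -0.33 (SOCS2) to 0.28 (JAK1) and a median of 0.00. The subunits IL4R (-0.19) and IL13RA1 (-0.02), and STAT6 (6.89 and 7.07 against 6.66 and 6.84, log2 -0.23), were among them, with adjusted p of 0.596 or more from limma. IL13 itself, the gene of the ligand, was measured at 3.76 and 3.99 against 3.96 and 4.09, below the negative-control median. Of 23 measured genes known to respond to IL-13 or STAT6 in epithelia, 3 rose, SERPINB3, SERPINB4 and PDCD1LG2, and 20 did not pass (median 0.04). Over all features, 0.285% passed this adjusted p in either direction. Among 25 known p63 targets, 23 did not pass and the median was -0.01. DST, which encodes the hemidesmosomal linker dystonin, rose by 0.70 and passed narrowly (adjusted p = 0.0455 from limma).

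In the other lists 0 to 3 members passed the adjusted p, which 0.285% of all features did. Of 29 measured cornified-envelope and late epidermal genes, SCEL and SPRR1B (-0.96) fell and 27 did not pass. Of 20 epithelial-mesenchymal transition genes, 1 passed, VIM, at 8.55 and 8.40 against 7.53 and 7.60 (log2 -0.91, adjusted p = 0.0283 from limma). Of 17 genes tied to lung metastasis of breast cancer cells, CXCL1 rose and SPARC fell. Of the 10 genes that the study had taken as candidate metastasis genes from other data, INHBA fell and 9 did not pass, with a median of 0.01. Among membrane proteases and ectoenzymes, FAP and TMPRSS15 rose, NT5E fell and 17 of 20 did not pass. In the antioxidant list, GPX2 rose, AKR1B10 fell (-0.71) and 22 of 24 did not pass. In the hypoxia list, EGLN3 rose, STC1 fell (-0.95) and 23 of 25 did not pass, VEGFA among them (-0.02). Of 24 measured enzymes and transporters of steroids, xenobiotics and lipid mediators, DPYD and ABCC2 rose. CEACAM1 was the only one of 20 secretory genes to pass, IFIT3 (0.95) the only one of 26 interferon-stimulated genes, and none of 26 replication and mitosis genes did (median -0.09). The basal marker KRT6B fell (-0.74), and the list's median of -0.24 was the lowest of all lists. CD36, a lipid scavenger receptor that the study names, had values of 3.58 and 3.66 against 5.02 and 4.64 (log2 1.21) and did not pass (adjusted p = 0.127 from limma).

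The interaction measures how far the combined change departs from the sum of the single changes. No gene passed it in limma, with a lowest adjusted p of 0.624, while 1304 features (4.47%) had an unadjusted p under 0.05. Of the 41 called genes, 9 had an unadjusted p under 0.05, on the same estimate of the spread that entered their selection, with adjusted p of 0.989 or more. The combined change was larger than the sum of the single changes in the upregulated EGLN3 (0.91), IL1A (0.56) and FAP (0.39) and the downregulated INHBA (-0.43). It was smaller than that sum in the upregulated SERPINB4 (-0.96), SIDT1 (-0.73), SERPINB3 (-0.60) and BICC1 (-0.42) and the downregulated KRT81 (0.58). For SERPINB4 the knockdown made a difference of 1.01 without IL-13 and of 0.04 with it, neither of which passed (adjusted p = 0.159 and 0.983 from limma). Of the 41 genes, 17 were called at none of the 4 single steps, TP63, CFI, PALMD and SERPINB13 among them, while 12 were called for IL-13 in shSCR cells (0.0583% of all features), 6 for the knockdown without IL-13 (0.0652%), 11 for IL-13 in knockdown cells (0.0618%) and 8 for the knockdown among cells with IL-13 (0.0515%). These steps share arrays with the combined comparison and their counts are given side by side only. A missed call does not show that a gene stayed unchanged. TP63 changed by 1.09 with IL-13 alone and by 1.19 with the knockdown alone (log2), and missed only the adjusted p (0.138 and 0.0996 from limma).

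Start regions of the called genes were searched for the STAT6-type motif, TTC and GAA with any 4 bases between them, which reads the same on both strands. A window of 250 bases before the start was at hand for 36 of the 41 genes. The motif was found in the windows of CFI and CXCL17, 5.56% of the 36, and in 5.38% of all 35116 windows. With 3 bases between, the more general STAT form, it was found in THBS1 alone (2.78%, against 6.57% of all windows). No match lay in the windows of SERPINB3 or SERPINB4 shown above, which says only that these letters are not there. The windows of CFI and CXCL17 (RefSeq, GRCh38.p14, minus strand, chr4:109802000-109802249 and chr19:42442947-42443196) are shown for the position of the matches, which are in capitals.
CFI: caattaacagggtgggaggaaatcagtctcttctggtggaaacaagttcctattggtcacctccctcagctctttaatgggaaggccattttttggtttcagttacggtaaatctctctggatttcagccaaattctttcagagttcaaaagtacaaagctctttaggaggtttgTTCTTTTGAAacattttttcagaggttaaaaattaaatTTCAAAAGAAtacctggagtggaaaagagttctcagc
CXCL17: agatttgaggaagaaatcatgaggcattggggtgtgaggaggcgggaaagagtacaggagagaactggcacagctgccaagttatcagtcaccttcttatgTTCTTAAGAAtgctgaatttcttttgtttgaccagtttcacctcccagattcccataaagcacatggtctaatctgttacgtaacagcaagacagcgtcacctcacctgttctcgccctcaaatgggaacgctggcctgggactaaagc
CFI holds 2 matches and CXCL17 holds 1, and the genes moved in opposite directions.

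The number of called genes depended on the arrays and on the test. With each array left out in turn it was 2 to 32, at 3 when A and 9 when B of the mock-treated shSCR arrays was left out, 2 when A and 6 when B of the arrays with both changes was, and 31 or 32 for the others. Over the 8 omissions the log2 fold changes of the 41 genes kept their direction. That outcome was fixed in advance, because the arrays of the compared groups do not overlap for any of these genes.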

How the data were processed

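RNA of 2 biological replicates per condition was hybridized to Affymetrix arrays. The authors deposited log2 expression values made with RMA in Affymetrix Expression Console (background correction, quantile normalization, summary of probes per gene; genome build not given in the sources used here), and no further normalization was applied. RMA compresses low signals, so fold changes of dim genes may be understated. Columns were assigned to groups from their headings. Of 33297 features, 4156 control and spike features were dropped, and 7064 of the others had no symbol.

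Group means of all 8 arrays were fitted with limma 3.58.1 in R 4.3.3 (4 residual and 3.86 prior degrees of freedom). A call needed an adjusted p under 0.05 (Benjamini-Hochberg, 29141 features) and a fold change above 2, and distinct symbols were counted. All called genes may be named. Values per array follow the 12 genes with the largest change in each direction, genes the study names, opposing genes and list members that passed. The method was tested on simulated data for the combined comparison, where changes of 1.1, 1.5 and 2 (log2) were recovered for 55%, 81.5% and 94.5% of 200 features. The simulated noise was independent between features, and all 200 changed by the same size. In the data 45 features were called, so recovery there may be lower. The members and the 20 gene lists, written from general knowledge, were chosen with earlier results of these data known. The test of the difference of parts, the study's candidate genes and the fit with control features were added after seeing the data. Sequences came from RefSeq (GRCh38.p14). Figures were drawn with matplotlib 3.10.9. The values of 1 list member that passed are not reported here.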

Additional observations from a re-analysis of the deposited data

Results flagged for a closer look

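Among the 4156 control and spike features left out of the tests, 3 passed the same adjusted p and fold change when all features were fitted together with limma. A negative-control feature rose by 1.481 on the log2 scale, from 2.69 on both arrays of mock-treated shSCR cells to 4.35 and 3.99 with both changes (adjusted p = 0.0458 from limma). Another negative-control feature differed by 2.498, from 1.60 and 1.66 to 4.50 and 3.76 (adjusted p = 0.0487 from limma). A spike feature had a log2 change of -1.38, from 9.61 and 9.62 to 8.25 and 8.22, with 8.62 and 8.92 after IL-13 alone and 9.21 and 9.39 after the knockdown alone (adjusted p = 0.0369 from limma). Their part in the results above was not tested.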

How the results depend on the processing

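No paired analysis was possible because the column headings carry no replicate numbers. The 41 genes became 2 with limma on the 4 arrays compared, 0 with the methods' one-way analysis of variance after adjustment (54 before it), 62 with limma without adjustment, and 75 with a fold change above 1.5 or no fold threshold. With each array left out they were 2 to 32. The count was 49 without the dimmest 30% of features, 43 with arrays shifted to one median, 41 after further quantile normalization, 60 with an intensity trend and robust prior, 44 with array weights, 43 with 1 feature per symbol and 29 with control features kept. IL-13 parts passed in 22 genes, in 14 with control features kept and in 13 to 15 with an array left out, and knockdown parts in 20, in 13 and in 10 to 13, or in 32 without adjustment. Genes with opposing parts were 9, and 246 without adjustment, 14 without dim features, 47 with the trend and robust prior, 3 with control features kept and 2 to 3 with an array left out. The interaction count of 0 became 841 without adjustment. No value of a named gene changed sign where it had passed. The cause of these shifts was not tested. Fits with fewer arrays also have fewer degrees of freedom.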

Other observations

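Among the features without a gene symbol, 4 were called in the combined comparison. A small nuclear RNA feature fell by 1.86 on the log2 scale, from 6.66 and 6.54 in mock-treated shSCR cells to 4.66 and 4.81 in IL-13-treated knockdown cells, with 5.07 and 5.33 after the knockdown alone (adjusted p = 0.00437 from limma). A pseudogene feature rose by 1.20, from 1.99 and 2.17 to 3.11 and 3.43, below the negative-control median throughout. The other 2, small nucleolar RNA features, held identical values on all arrays and rose by 1.25 each, with levels after the knockdown alone (7.36 and 7.14) as high as with both changes (7.18 and 7.40).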
